A study of Mus musculus with 2 samples.

Results

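HSC-gated cells were selected on the measured RNA of stem cell genes from 2 single-cell libraries of sorted mouse bone marrow progenitors. A cell was kept where at least 1 UMI (a unique molecular identifier, counted once per captured RNA molecule) was present for at least 3 of the 6 genes Procr, Mecom, Mllt3, Hlf, Pdzk1ip1 and Esam, and where Dntt, Pf4, Top2a and Mki67 had 0 UMIs. Of the 18031 cells with more than 200 genes and under 10% mitochondrial UMIs, 1280 met the rule, of which 243 were among 8815 WT cells and 1037 among 9216 cKO cells. The cells were thus chosen by the UMI counts of these 10 genes, whose values describe the gate and carry no finding.

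The study asked what loss of Trmt6, the non-catalytic subunit of the tRNA m1A58 methyltransferase, does to haematopoietic stem and progenitor cells. LSK cells (lineage-depleted, Sca-1 and c-Kit positive; an antibody against Flt3 was also used) were sorted from mice aged 3 months, and 1 library was made for each genotype. The WT library is labelled Trmt6fl/fl and the cKO library Trmt6fl/fl, MX1-cre, whereas the study's text describes Mx1-Cre mice without floxed Trmt6 as controls and polyI:C injection of both, so whether the WT cells carried Cre and saw the same treatment cannot be told from the sources used here. Mx1-Cre is driven by an interferon-inducible promoter and is not restricted to stem cells, and the number of mice behind each library is not given in the sources used here. With 1 library per genotype no difference below has a replicate check, none was tested, and genotype and library cannot be told apart. Every interval in brackets is a 95% interval and covers counting error only.

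Haematopoietic stem cells renew themselves and give rise to all blood lineages, and most of them are out of the cell cycle at any time. Their state is held by transcription factors such as Meis1, Gata2, Erg and Mycn and by receptors such as c-Kit, and they keep low rates of protein synthesis. Hlf, Mecom and Mllt3 encode nuclear regulators of self-renewal, and Procr and Esam encode surface proteins used to sort stem cells. Pdzk1ip1 is a stem cell marker gene, Dntt marks lymphoid priming, Pf4 marks the platelet lineage, and Top2a and Mki67 mark cycling cells.

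The rule kept 2.76% (2.42 to 3.12) of WT and 11.3% (10.6 to 11.9) of cKO cells, which is 4.08 times the WT share. The cKO library was deeper, with a median of 7592 UMIs in its gated cells against 3044 in WT and of 10694 against 4409 in the other cells, and a rule that counts detected genes admits more cells where more UMIs were read. When 2000 UMIs were drawn at random from every cell, the rule was met by 117 of 8610 cells in WT (1.36%, 1.13 to 1.63) and by 216 of 9102 in cKO (2.37%, 2.07 to 2.71), a ratio of 1.75, with 205 WT and 114 cKO cells left out as too shallow. In 5 other random draws the WT number was between 113 and 128 and the cKO number between 209 and 227. At 1000 UMIs the shares were 0.375% and 0.565%, a ratio of 1.51. The cKO share was the higher one at each depth, and the intervals of the WT and cKO shares did not overlap at 2000 UMIs but did at 1000.

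**Figure D1:**
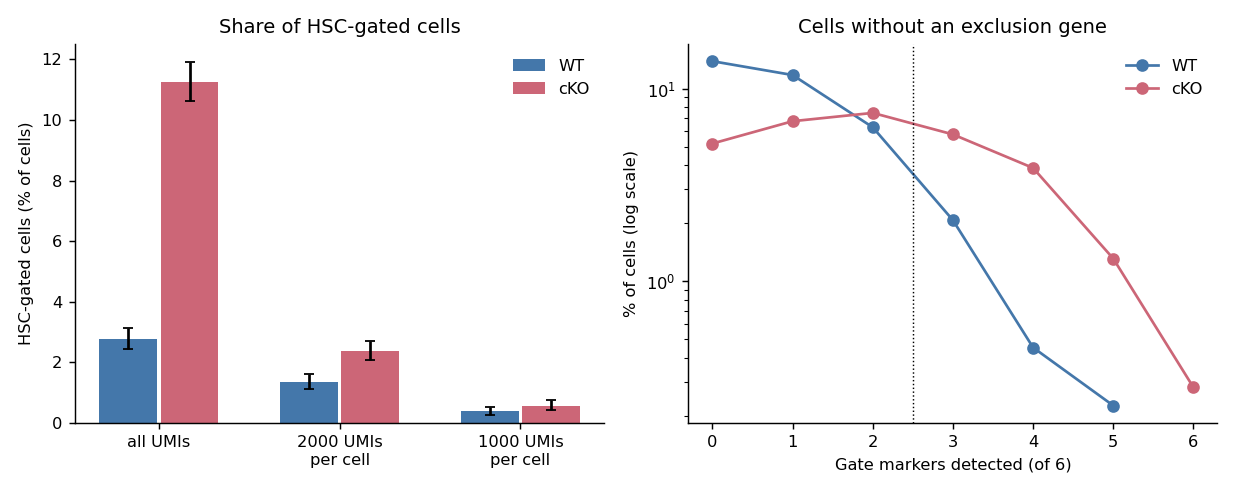
Left, bars give the share of cells that met the HSC rule (% of cells, 95% binomial interval) in WT and cKO with all UMIs and with 2000 or 1000 UMIs kept per cell. Right, the share of cells on a log scale against the number of the 6 stem markers detected, among cells with none of the 4 exclusion genes, with a dotted line between 2 and 3 markers. The ratio of the cKO to the WT share falls from 4.08 to 1.75 and 1.51 as depth is made equal.

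The exclusion genes removed a larger share of the cKO cells. Of the cells with at least 3 stem markers, 43.2% of 563 in WT and 30.9% of 3354 in cKO were kept. Top2a, a topoisomerase of dividing cells, was detected in 37.5% of these cells in WT and 56.6% in cKO, Mki67 in 25.04% and 36.6%, Pf4 in 19.4% and 19.7%, and Dntt in 10.7% and 2.27%. With 2000 UMIs per cell the kept shares were 70.1% and 71.8%. The 2 ways of gating shared 103 WT and 155 cKO cells, and 14 WT and 61 cKO cells gated at 2000 UMIs had an exclusion gene among their remaining UMIs. Values for the cells gated at 2000 UMIs, summed over all their UMIs, are therefore given beside the main ones, written as at 2000 UMIs, where a gene named below as 2-fold different fell within 2-fold there or a list's count of 2-fold genes moved by over 1.5 times.

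Exactly 3 markers were detected in 183 of the 243 WT cells and in 533 of the 1037 cKO cells, 4 in 40 and 357, 5 in 20 and 121, and all 6 in 0 and 26. The most frequent trio was Mecom, Hlf and Pdzk1ip1 in WT, in 31 cells, and Mecom, Hlf and Esam in cKO, in 72 cells. Just inside the rule, the summed level of the 6 markers was 1224 CPM (UMIs of a gene per 1000000 UMIs of the cells summed) in the WT cells with 3 markers and 560 in the cKO cells. Just outside it, in the 555 WT and 689 cKO cells with 2 markers and no exclusion gene, it was 810 and 332 CPM. A cKO cell thus met the rule at a lower marker level than a WT cell did.

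Each marker was found in a larger share of gated than of other cells. Hlf was detected in 79.8% of the gated WT cells and 72.8% of the gated cKO cells, against 24.95% and 45.3% of the other cells. For the other 5 markers the gated shares ran from 35.4% (Procr) to 73.3% (Pdzk1ip1) in WT and from 48.8% (Mllt3) to 69.4% (Esam) in cKO. Cells with 4 or more lymphocyte markers were used for comparison. They were no clean background, since Dntt was detected in 60% of them in WT and 65.1% in cKO and Top2a in 70% and 45.6%, so that they took in lymphoid and cycling progenitors. In the 149 such cKO cells, with a median of 5654 UMIs, the shares were 2.01% to 8.72%. In the 20 such WT cells, with a median of 5814.5 UMIs, they were 0 to 20%, the highest being 4 cells with Mllt3. The level of free RNA was therefore not measured in these libraries.

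Markers outside the rule were used to check the label. Of 15 stem cell markers not in the gate, 8 had a mean of at least 20 CPM over the 2 libraries, and all 8 were higher in the gated than in the other cells of each library, among them Ly6a, Ifitm1, Tcf15, Gimap6, Nkx2-3, Gata2 and Meis1. Their median log2 ratio of gated over other cells was 1.85 in WT and 0.78 in cKO. Of 11 genes of committed progenitors, 8 were measured and all 8 were lower in the gated cells, with medians of -1.42 and -1.46. These are descriptions, since genes that go together with the gate genes follow from the choice. Slamf1, which encodes CD150, the receptor by which long-term stem cells are sorted, had only 8 UMIs in WT and 124 in cKO, that is 9.94 (4.29 to 19.6) and 15.1 (12.6 to 18.0) CPM. The label was kept, with the limit that no surface protein was measured and that the WT cells stood further from the rest of their library in these stem cell markers than the cKO cells did.

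The gated cells held 804478 UMIs in WT and 8213648 in cKO. Mitochondrial genes took a median of 2.68% of a gated cell's UMIs in WT and 2.03% in cKO, and ribosomal protein genes 29.9% and 35.7%, so that library composition differed along with genotype. Of 24 barcodes found in both libraries, 0 of the gated WT cells and 3 of the gated cKO cells carried one. Doublets were not removed from the main values, and as an alternative the highest of a neighbour-based score were removed at an assumed rate of 0.8% per 1000 barcodes, which sets the removed shares of 7.09% in WT and 7.41% in cKO.

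Trmt6 (chr2:132804207-132816055, minus strand) itself gave 38 UMIs in the gated WT cells and 304 in the gated cKO cells, or 47.2 (33.4 to 64.8) and 37.0 (33.0 to 41.4) CPM, and its log2 ratio of cKO over WT was -0.37 (-0.84 to 0.17). In the cells gated at 2000 UMIs the ratio was -1.07 (-1.83 to -0.24), and in the other cells -0.31. By all UMIs the 2 intervals of Trmt6 overlapped. A count from the 3′ end can include transcripts that lack a deleted exon further upstream. Reads of single exons were not looked at, so this level does not check the genotype. Trmt61a, the catalytic partner, had 16.2 CPM in WT and 26.4 in cKO, with a log2 ratio of 0.66 (-0.10 to 1.64). At 2000 UMIs its ratio was 2.69 (0.69 to 8.60), on 1 UMI in WT and 38 in cKO. Of the 7 measured writers and erasers of tRNA m1A none differed by 2-fold by CPM with all UMIs in the gate. With TMM factors 1, Alkbh3, was 2-fold higher, against 3.44% of all genes. At 2000 UMIs 2 of 6, Trmt6 and Alkbh1 (-1.11, -1.67 to -0.52), were 2-fold lower, against 7.87% of all genes. The ratios ran from Alkbh1, a demethylase, at -0.88 to Alkbh3, another demethylase, at 0.79, with a median of 0.25 that was -0.27 at 2000 UMIs.

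Across the genes outside the gate, 103 of 5238 with a mean of at least 20 CPM (1.97%) were at least 2-fold higher in the gated cKO than in the gated WT cells, and 322 (6.15%) were at least 2-fold lower. A gene whose lower level was under 13.3 CPM reached this mean through 1 library alone and had to be 2-fold different, which held for 21 of the higher and 54 of the lower genes. Among the 5163 others 1.59% were 2-fold higher and 5.19% 2-fold lower. The counts of the gene lists below are descriptions, and the called members that had to differ in this way are named beside them. The median over all measured genes was -0.10, and 41.3% had a higher level in cKO. The balance of higher and lower genes depended on the scaling. With median-of-ratios or TMM factors, which moved the median of all genes up by 0.22, there were 180 higher genes against 183 or 182 lower ones (3.44% and 3.47% with TMM), and with totals that left out mitochondrial and ribosomal protein genes 36.9% of the 2-fold genes were higher, against 24.2% by CPM. Single ratios are therefore best read against a zero that may lie up to 0.22 lower.

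At equal gating depth 149 of 5326 genes (2.80%) were 2-fold higher and 419 (7.87%) 2-fold lower. These shared 52 genes with the 103 higher ones, or 50.5% of the one list and 34.9% of the other, and 204 with the 322 lower ones, or 63.4% and 48.7%. The other cells of the libraries had 1.86% of their genes 2-fold higher and 3.60% 2-fold lower in cKO. The gated WT group is small and low counts scatter more widely there, but what this adds to these shares was not tested.

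**Figure D2:**
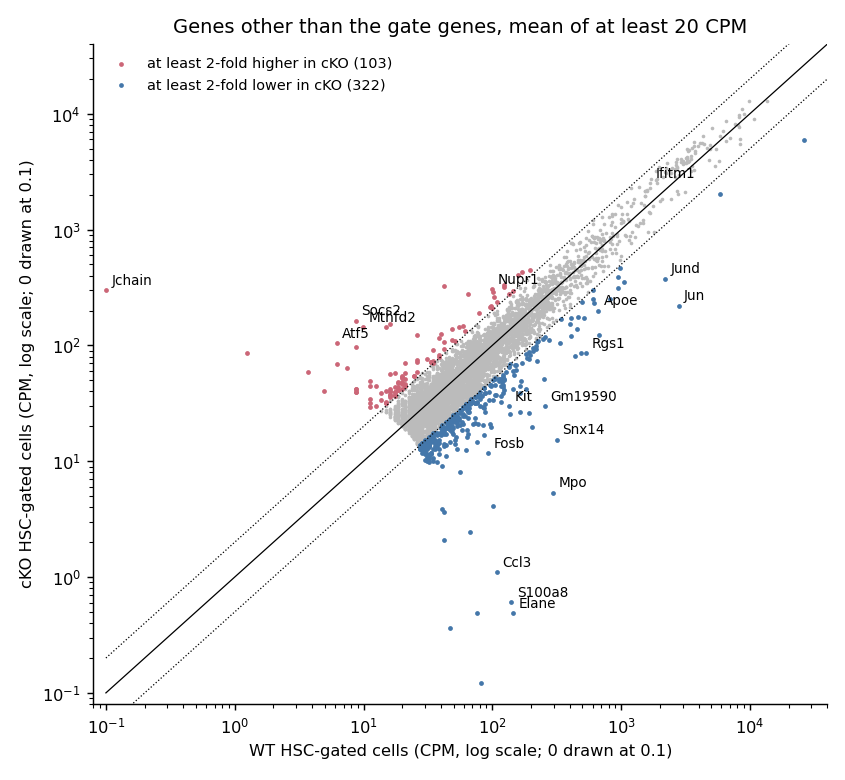
Summed level of each gene in gated WT cells (x axis) and gated cKO cells (y axis), both in CPM on log scales, for 5238 genes with values of 0 drawn at 0.1. Red points are the 103 genes at least 2-fold higher and blue points the 322 at least 2-fold lower in cKO, and dotted lines mark 2-fold. Neutrophil granule genes and Jun lie far below the diagonal, and Socs2, Atf5 and Mthfd2 far above it.

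Socs2, which encodes a feedback inhibitor of cytokine signalling through JAK and STAT proteins, led the higher genes that rested on many cells. It lies at chr10:95385362-95417180 on the minus strand. Its 7 UMIs in WT and 1343 in cKO gave 8.70 (3.50 to 17.9) and 164 (155 to 172) CPM. The log2 ratio was 4.13 (3.19 to 5.55), and 4.77 in the cells gated at 2000 UMIs. Cish, another member of the same feedback family, was at 17.4 and 58.1 CPM (1.69, 0.98 to 2.62, and 0.64 with at least 4 markers), and Socs3 went the other way, at 58.4 and 21.7 CPM (-1.44). Of 9 measured genes of JAK-STAT feedback, 2 were 2-fold higher, against 1.97% of all genes, of which Socs2 passed the minimum level through cKO alone, and 1 lower, against 6.15%. The median was -0.27. Slfn2, a Schlafen gene of the interferon response that is known to restrain lymphocyte and progenitor activation, was at 8.70 and 96.2 CPM (3.37, 2.42 to 4.79). Hbb-bt, a beta-globin gene, was at 42.3 and 325 CPM (2.92), while none of the other 4 measured erythroid genes was higher by 2-fold.

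Jchain had the highest ratio among genes with a mean of at least 50 CPM, and it rested on 2 cells. It encodes the joining chain of secreted antibodies and is a plasma cell gene. No UMI was found in the gated WT cells and 2463 in the gated cKO cells, of which 2363 (95.9%) came from 2 cells. Against a floor of 3 counts over the WT cells the level in cKO was at least 80.4-fold higher with those 2 cells and at least 3.27-fold higher without them. In all, 40 cKO cells and 0 WT cells of the whole libraries had more than 100 Jchain UMIs. With the 2 cells left out, the 2-fold higher genes numbered 101.

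Of the 32 gene lists, that of the integrated stress response and amino acid supply, genes known as targets of the transcription factor ATF4, held the most 2-fold higher genes. Of 36 listed genes 21 were measured, and 16 of them were at least 2-fold higher in gated cKO cells, against 1.97% of all genes. Another 3 were at least 2-fold lower, against 6.15% (2 with TMM factors, against 3.47%, where Slc38a2 was within 2-fold). Atf5, Mthfd2 and Slc7a5 passed the minimum level through cKO alone, and of the other 18 genes 13 were 2-fold higher, against 1.59% of all such genes, with a median of 1.30. Over the 21 the median was 1.34 beside -0.10 for all genes, and 1.04 at 2000 UMIs, where 11 were 2-fold higher against 2.80% of all genes. The list was drawn up with earlier results of these data known, so its count is no independent evidence of its direction.

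Atf4 itself was at 78.3 CPM in WT and 191 in cKO (1.27, 0.92 to 1.67, and 0.93 at 2000 UMIs). Atf5, a related transcription factor, was at 6.22 (2.02 to 14.5) and 104 (97.4 to 111) CPM (3.93, 2.84 to 5.69). Trib3, a pseudokinase that is induced by ATF4 and feeds back on it, was at 14.9 (7.71 to 26.1) and 144 (136 to 152) CPM (3.21, 2.46 to 4.22). All 3 were higher in cKO with intervals far from 0. Nupr1, a small stress-induced chromatin protein, was already detected in WT, at 99.4 CPM, and reached 305 in cKO (1.61, 1.30 to 1.96), but with at least 4 markers its ratio was 0.67 and with at least 2 it was 2.45. Ddit3, which encodes CHOP, was at 41.0 and 73.8 CPM (0.83), and at equal gating depth its ratio was -0.09.

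Several enzymes on the list act in one-carbon metabolism and in the synthesis of serine and asparagine. Mthfd2, a mitochondrial enzyme of one-carbon metabolism, was at 9.94 (4.29 to 19.6) and 144 (136 to 152) CPM (3.77, 2.87 to 5.07). Asns, asparagine synthetase, was at 16.2 (8.60 to 27.6) and 152 (144 to 161) CPM (3.18, 2.46 to 4.15). The 3 steps of serine synthesis, Phgdh, Psat1 and Psph, had ratios of 1.34 (0.94 at 2000 UMIs), 2.20 and 1.33. Pck2, mitochondrial phosphoenolpyruvate carboxykinase, was at 39.8 and 126 CPM (1.65), and the amino acid transporter gene Slc7a5 was at 11.2 and 49.2 CPM (2.06). The 3 lower genes of the list were Slc38a2, a neutral amino acid transporter (-1.01), Vldlr, a lipoprotein receptor (-1.26), and Ppp1r15a, the phosphatase subunit that ends the stress response (-1.33).

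The stretches before the start sites of Atf5, Mthfd2 and Trib3 are shown because these 3 had the highest ratios of the list. They were taken from RefSeq on the build GRCm38.p6 and are the 250 bases before the start on the minus strand, at chr7:44816659-44816908, chr6:83317605-83317854 and chr2:152344061-152344310. TGATGNAA, the composite C/EBP-ATF motif through which ATF4 is known to bind, was searched on both strands and has no match in these 3 stretches, so they hold no capitals.
Atf5: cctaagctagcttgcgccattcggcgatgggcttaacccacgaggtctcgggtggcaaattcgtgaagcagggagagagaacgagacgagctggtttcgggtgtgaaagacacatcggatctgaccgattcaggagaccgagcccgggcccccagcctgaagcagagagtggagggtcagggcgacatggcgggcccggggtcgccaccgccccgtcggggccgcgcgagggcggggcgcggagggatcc
Mthfd2: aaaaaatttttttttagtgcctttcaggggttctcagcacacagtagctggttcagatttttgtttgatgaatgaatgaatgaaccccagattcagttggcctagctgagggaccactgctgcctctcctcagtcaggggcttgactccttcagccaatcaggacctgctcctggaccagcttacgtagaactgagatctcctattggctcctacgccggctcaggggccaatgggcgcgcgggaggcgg
Trib3: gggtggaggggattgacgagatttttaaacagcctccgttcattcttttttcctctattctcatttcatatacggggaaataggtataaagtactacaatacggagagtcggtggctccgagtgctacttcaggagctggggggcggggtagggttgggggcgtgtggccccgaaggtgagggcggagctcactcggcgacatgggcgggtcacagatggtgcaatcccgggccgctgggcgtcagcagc

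In windows from 250 bases before to 50 after the start, 1304 of 32851 RefSeq promoter entries (3.97%) held the motif. Of the 31 listed genes with an entry, 10 held it in any of their entries. This count is by gene and so is not the same measure as the share by entry. Of the 21 measured genes 18 had an entry, and 4 of these held it, namely Trib3, Asns, Nupr1 and Vldlr. The 30 bases around the match are printed for the first 3, which were chosen after their values were seen, with the match in capitals. They lie on the minus strand at chr2:152344028-152344057, where the match is 15 bases after the start and reads on the opposite strand, at chr6:7693214-7693243, where it is 23 bases before the start on the gene's strand, and at chr7:126625562-126625591, where it is 110 bases before the start on the opposite strand. A match is a description of letters and not a binding site shown in these cells.
Trib3: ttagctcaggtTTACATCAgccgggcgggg
Asns: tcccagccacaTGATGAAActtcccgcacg
Nupr1: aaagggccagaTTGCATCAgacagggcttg

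Cytosolic aminoacyl-tRNA synthetases charge tRNAs with amino acids. Of 23 measured, 8 were at least 2-fold higher in gated cKO cells, against 1.97% of all genes, and none 2-fold lower, and 22 had a ratio above 0. Without Cars, which passed the minimum level through cKO alone, 7 of 22 were 2-fold higher, against 1.59% of all genes that did not have to differ in this way. With TMM factors 12 were 2-fold higher, against 3.44% of all genes, and all 23 were above 0, while at 2000 UMIs 5 of 22 were 2-fold higher, against 2.80%. The median was 0.92, and 0.59 at 2000 UMIs. Cars, for cysteine, was at 8.70 and 41.6 CPM (2.16, 1.20 to 3.58), Yars, for tyrosine, at 21.1 and 70.7 CPM (1.70), and Mars and Wars, for methionine and tryptophan, had ratios of 1.42 and 1.39 (that of Wars was 0.72 at 2000 UMIs). The one ratio below 0 was that of Qars, for glutamine, at -0.19 (-0.74 to 0.45).

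The immediate early genes, whose products include the AP-1 transcription factors and which are known to respond within minutes to stress and to tissue handling, formed the list with the most 2-fold lower genes. Of 30 listed genes 19 were measured, and 17 were at least 2-fold lower in gated cKO cells, against 6.15% of all genes. Fosb and Csrnp1 passed the minimum level through WT alone, and 15 of the other 17 were 2-fold lower, against 5.19% of all such genes. The median was -2.29, and -1.83 in the cells gated at 2000 UMIs. Jun (chr4:95049034-95052222, minus strand) had 2250 UMIs in WT and 1806 in cKO, or 2797 (2682 to 2915) and 220 (209.9 to 230.3) CPM, a ratio of -3.67 (-3.76 to -3.58). Fosb was at -2.998, Egr1 at -2.89 and Jund at -2.55. The 2 genes that were not 2-fold lower were Ier5 (-0.86) and Dusp6 (-0.22). These genes were lower in the other cells too, with a median of -2.13, and how the 2 samples were handled before lysis cannot be told apart from genotype here.

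**Figure D3:**
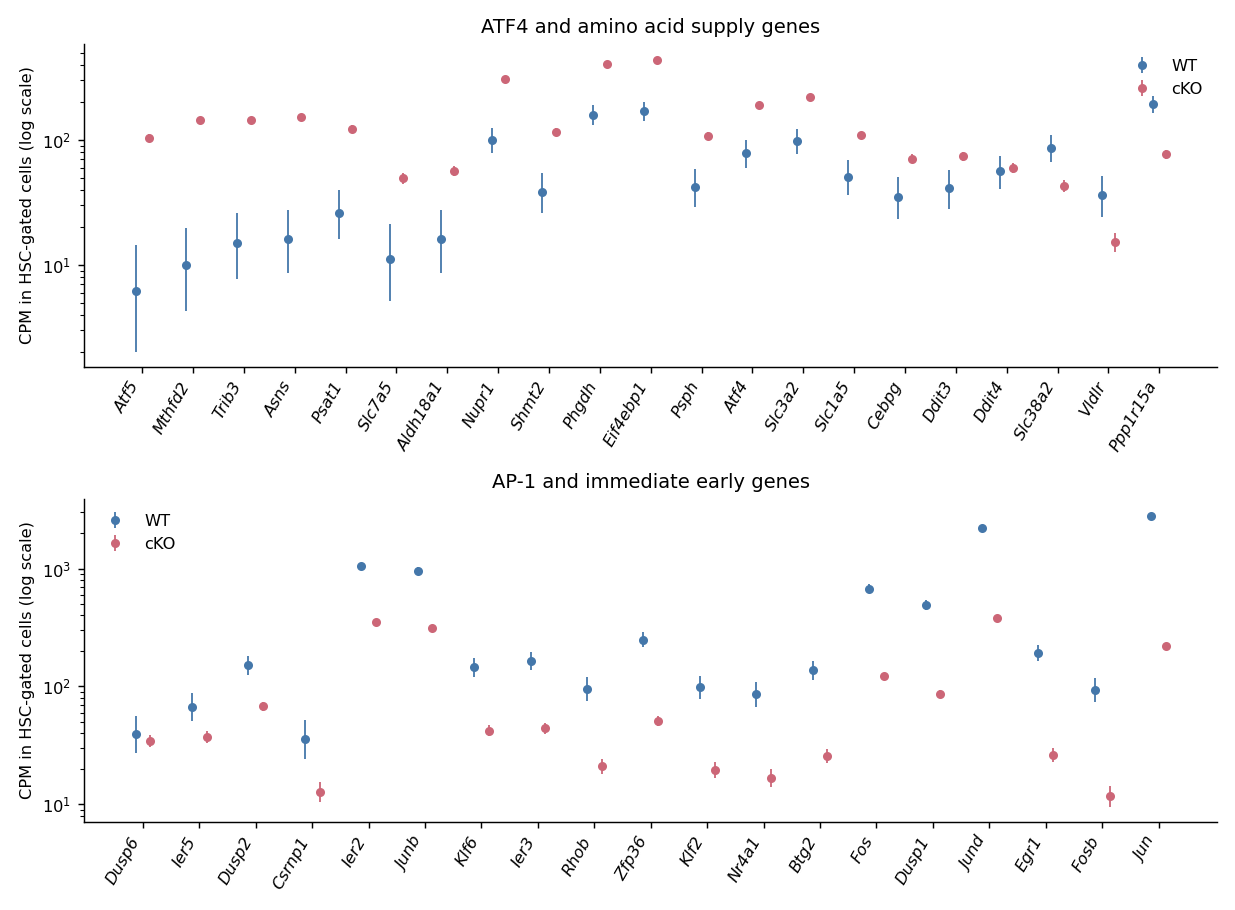
Level in CPM (log scale, 95% Poisson interval) of genes of ATF4 and amino acid supply (top) and of AP-1 and immediate early genes (bottom) in gated WT cells and gated cKO cells. The first group lies higher in cKO, with Atf5 at 6.22 in WT and 104 in cKO, and the second lower, with Jun at 2797 and 220.

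Most genes of stem cell transcription factors had lower levels in gated cKO cells, though few by 2-fold. Of 22 measured, 6 were at least 2-fold lower, against 6.15% of all genes, 1 was 2-fold higher, against 1.97%, and 19 had a ratio below 0, with a median of -0.52 beside -0.10 for all genes. With TMM factors 3 were 2-fold lower, against 3.47% of all genes, and 17 below 0, with a median of -0.30. At 2000 UMIs 3 of 23 were 2-fold lower, against 7.87%, and the median was -0.47. Meis1, a homeobox factor needed for stem cell maintenance (chr11:18879817-19018985, minus strand), was at 186 (158 to 219) CPM in WT and 78.3 (72.4 to 84.6) in cKO, a ratio of -1.26 (-1.51 to -0.99). It was -1.40 (-1.83 to -0.96) at 2000 UMIs and -1.80 with at least 4 markers, but within 2-fold with at least 2 markers (-0.89) and without the exclusion genes (-0.70). Gfi1b, a repressor that holds stem cells in quiescence (chr2:28609450-28621982, minus strand), was at 62.2 and 12.4 CPM (-2.33, -2.83 to -1.81), and it passed the minimum level through WT alone.

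Runx1, Erg and Myct1 were 2-fold lower as well, at -1.06, -1.05 and -1.12, but not at 2000 UMIs (-0.89, -0.96 and -0.54). Gata2 (-0.63), Lyl1 (-0.52) and Lmo2 (-0.42) had smaller ratios. Mycn, a MYC family gene expressed in stem cells (chr12:12936093-12941914, minus strand), was the exception, at 59.7 and 147 CPM (1.29, 0.89 to 1.75). Tcf15, another stem cell factor, was at 36.0 and 54.5 CPM (0.57, 0.06 to 1.19). In the other cells the median of these factors was -0.04, and the ratio of Meis1 there was -0.04 as well. For Meis1 the difference between gated and other cells was -1.22 (-1.48 to -0.95).

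Surface proteins of stem cells gave a median of -0.31 over 20 measured genes, with 4 of them 2-fold lower, against 6.15% of all genes, and none 2-fold higher, and a median of -0.09 with TMM factors (where that of all genes was 0.12). Kit, which encodes the receptor used in the sort, was at 134 and 29.7 CPM (-2.18), and Ly6a, which encodes the sorted antigen Sca-1, was at 129 and 204 CPM (0.65, 0.37 to 0.96). At 2000 UMIs Ly6a had a ratio of 1.28 (0.77 to 1.87) and was the 1 surface gene that was 2-fold higher there. In the other cells Ly6a had a ratio of 2.06, from a level of 32.6 CPM in WT and 136 in cKO. Cd27 (-1.22) and the integrin gene Itga4 (-1.33) were also 2-fold lower, though just within 2-fold at 2000 UMIs (-0.996 and -0.97), and Cd34, a sialomucin that is lost in long-term stem cells, had a ratio of -0.93.

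Of 19 other genes enriched in stem cells 8 were 2-fold lower, against 6.15% of all genes, and 1 was 2-fold higher, against 1.97%, with a median of -0.75 beside 0.06 in the other cells. With TMM factors these counts were 5, against 3.47%, and 2, against 3.44%. Rgs1, a regulator of chemokine receptor signalling, was at 532 and 86.1 CPM (-2.63). Apoe, a lipid carrier, was at 661 and 199 CPM (-1.73), and Gng11, a G protein subunit, at 223 and 73.8 CPM (-1.60). The 1 higher gene was Cish, which was within 2-fold with at least 4 markers. Ifitm1, an interferon-induced membrane protein that is abundant in stem cells, was at 1688 and 2517 CPM (0.58), and higher in the gated than in the other cells of both libraries.

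**Figure D4:**
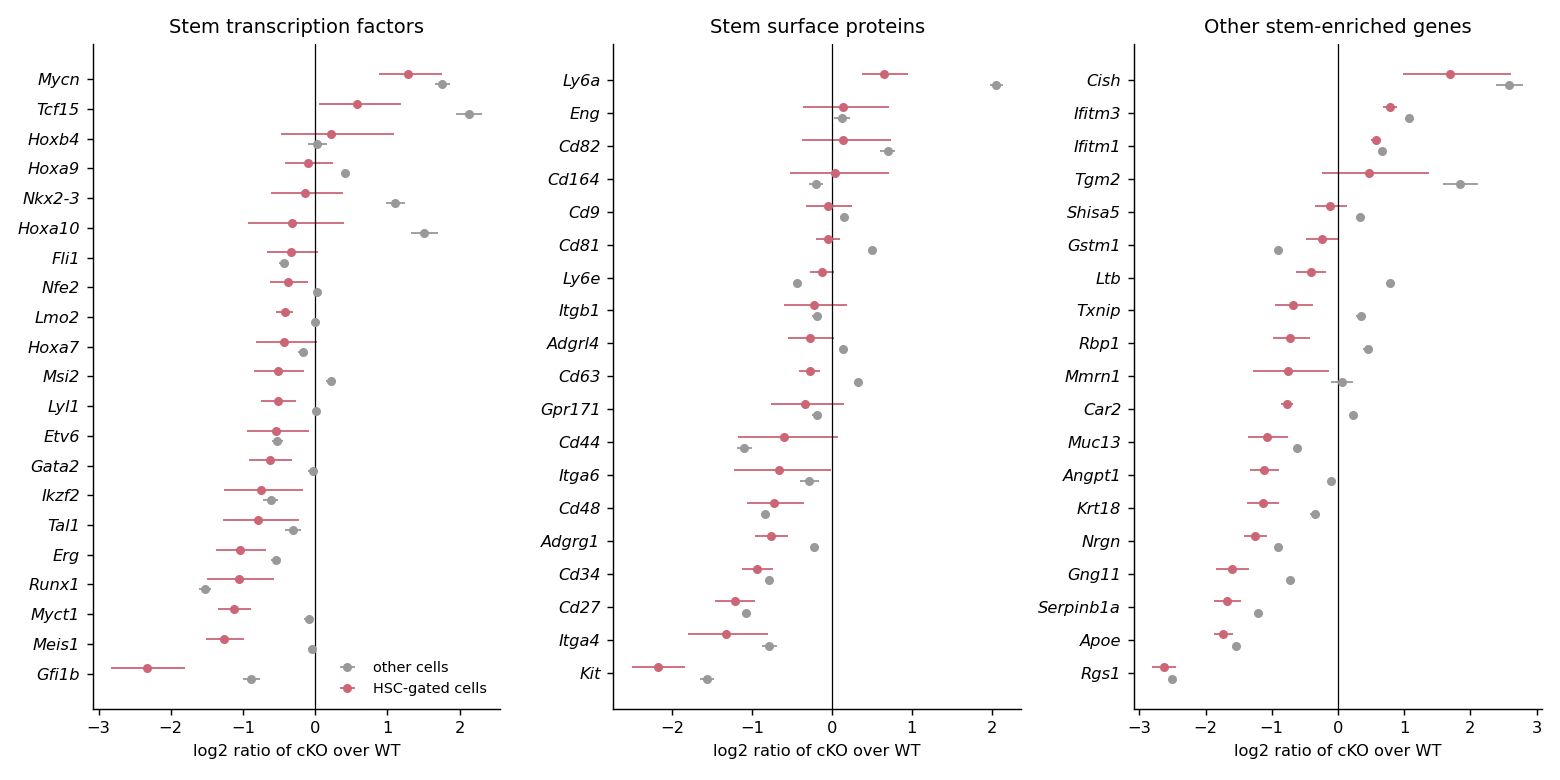
Log2 ratio of cKO over WT (x axis, 95% counting interval) for stem cell transcription factors, stem cell surface proteins and other stem-enriched genes, in gated cells (red) and in all other cells (grey). Most red points lie left of 0, and for Meis1 the red point lies at -1.26 while the grey one lies at -0.04.

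Of 16 measured genes that restrain cycling 6 were 2-fold lower, against 6.15% of all genes (5 with TMM factors, against 3.47%), and none 2-fold higher. A ratio below 0 was found for 14 of them (13 with TMM factors), with a median of -0.73 (-0.77 at 2000 UMIs and -0.45 in the other cells). Btg2 and Btg1, antiproliferative proteins, had ratios of -2.42 and -2.06, and Klf2, a factor of resting blood cells, was at -2.33. Cdkn1c, the CDK inhibitor p57 that is typical of quiescent stem cells, was at 48.5 and 46.4 CPM (-0.08, -0.54 to 0.45) in gated cells, while its ratio in the other cells was 2.04. Btg2, Klf2 and Klf6 are also on the immediate early list.

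Cyclins gave no common direction. Ccnd1, cyclin D1, was at 16.2 and 37.0 CPM (1.14, 0.40 to 2.12, and 0.84 at 2000 UMIs), Ccnd2 at 276 and 395 CPM (0.51), and Cdk6, a kinase that sets the exit from quiescence, at 411 and 120 CPM (-1.77, -1.95 to -1.59). The median over 8 such genes was 0.16. Of 25 genes of DNA replication 2 were 2-fold higher, Ung (1.24, and 0.94 without the exclusion genes) and Rrm1 (1.10, and 0.70 at 2000 UMIs), against 1.97% of all genes, and the median was 0.27. At 2000 UMIs 4 of 24 were 2-fold higher, against 2.80%, and the median was 0.55. The 9 mitotic genes that were measured, other than Top2a and Mki67, had a median of -0.30, with none 2-fold higher. At 2000 UMIs 15 were measured, 3 were 2-fold higher, against 2.80% of all genes, and the median was 0.42. Cenpe, a kinetochore motor, had -1.46 by the one gate and 0.07 by the other (it passed the minimum level through WT alone), and Birc5, the division protein survivin, -0.44 and 1.28.

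The mTORC1 pathway was central to the study, which used a hallmark set of mTORC1 signalling genes, S6 phosphorylation and TSC1 protein. The list here is a different one, of mTORC1, its inputs and its direct substrates, and does not repeat those measures. It had 15 measured genes, of which Eif4ebp1 was 2-fold higher, against 1.97% of all genes, and none 2-fold lower. Eif4ebp1 was at 170 and 432 CPM (1.34, 1.10 to 1.60). It encodes the translation repressor 4E-BP1 and is also an ATF4 target. The median was -0.09, beside -0.10 for all genes, and with TMM factors it was 0.12 beside 0.12. Tsc1, which encodes a subunit of the complex that holds mTORC1 in check, had 9 UMIs in WT and 32 in cKO, or 11.2 (5.12 to 21.2) and 3.90 (2.67 to 5.50) CPM, under the minimum level used here (-1.58, -2.62 to -0.27). Mtor had 3 and 68 UMIs (0.94, -0.46 to 3.46), a difference that could not be detected at this depth. Gsk3b (-0.81) had a lower level, and Rps6, a ribosomal protein and target of the pathway's kinase, was at 0.57.

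Translation and energy genes mostly differed by less than 2-fold. Over 46 cytosolic ribosomal protein genes the median was 0.38, with Rps20 the highest at 0.80. It was 0.60 with median-of-ratios or TMM factors and 0.50 with totals that left such genes out. Ribosome assembly factors had a median of 0.49, with 2 of 26 2-fold higher, against 1.97% of all genes, Bop1 (1.06) and the spermidine synthase gene Srm (1.02), both within 2-fold at 2000 UMIs (0.72 and 0.77), where 1 other of 25 genes was 2-fold higher, against 2.80%, and 1 lower, against 7.87%. The 12 measured mitochondrially encoded mRNAs all had ratios below 0 (11 with TMM factors), with a median of -0.51 and mt-Atp8 at -1.60. The nuclear genes of the respiratory chain had a median of 0.20, glycolysis genes 0.09, and heat shock genes 0.45 with Dnajb1 at -1.25 (-0.97 at 2000 UMIs). Of the unfolded protein response Xbp1, its central transcription factor and also a plasma cell regulator, was 2-fold higher by CPM, at 64.6 and 277 CPM (2.09). Herpud1, an ER degradation gene, was just within 2-fold (0.99), and with TMM factors 2 genes of the list were 2-fold higher, against 3.44% of all genes. Dnajb9 was 2-fold lower (-1.23, and -0.79 with at least 4 markers). The median was 0.06 over 16 genes, and by CPM the shares of all genes were 1.97% higher and 6.15% lower.

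Of 10 measured p53 target genes 3 were 2-fold higher, against 1.97% of all genes, and none lower, with a median of 0.69. With TMM factors 5 were 2-fold higher, against 3.44%, but at 2000 UMIs 0 of 9 were, with a median of 0.31. Phlda3, an inhibitor of AKT, was at 4.97 and 40.8 CPM (2.87, 1.67 to 4.92) and passed the minimum level through cKO alone. Aen, a nuclease, had a ratio of 1.42 and Bbc3, the death protein PUMA, of 1.21. At 2000 UMIs Phlda3 was under the minimum level, and Aen and Bbc3 were at 0.57 (-0.28 to 1.63) and 0.95 (-0.10 to 2.41). Cdkn1a, the CDK inhibitor p21 and a classical target, was at 70.9 and 73.3 CPM (0.04, -0.34 to 0.47).

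Immune genes were mixed. Among NF-kB feedback genes and chemokines 3 of 7 measured were 2-fold lower, against 6.15% of all genes, Ccl3 at 109 and 1.10 CPM (-6.57), Ccl4 at 203 and 19.8 CPM (-3.35) and Plek at 41.0 and 3.90 CPM (-3.40). The median was -0.61, and it was -1.58 with at least 4 markers and -0.39 with TMM factors. Ccl3 and Plek passed the minimum level through WT alone. The 24 measured interferon-stimulated genes had a median of -0.32, with Slfn2 2-fold higher, which passed the minimum level through cKO alone, and Trim30a 2-fold lower (-1.20, within 2-fold with TMM factors, with at least 2 markers and without the exclusion genes), and Isg15 at 51.0 and 32.4 CPM (-0.67). The shares of all genes were 1.97% higher and 6.15% lower. At 2000 UMIs 2 of 25 were 2-fold higher, against 2.80% of all genes, and 3 lower, against 7.87%. The 11 genes of MHC antigen presentation all had ratios below 0 (9 with TMM factors), none of them by 2-fold, with a median of -0.53, while at 2000 UMIs 1 was 2-fold lower, against 7.87% of all genes. GIMAP GTPases had a median of 0.02. Among TGF-beta and Wnt genes Id1, a target of BMP signals, was at 12.4 and 44.3 CPM (1.77, and 0.93 with at least 4 markers), and Smad7, Skil and Lrp6 were 2-fold lower at -1.93, -1.74 and -1.22 (that of Lrp6 was -0.31 at 2000 UMIs), with a median of -0.46 over 10 and 6.15% of all genes 2-fold lower. Id1 and Smad7 passed the minimum level through 1 library alone. None of 13 chromatin regulators was 2-fold different, with a median of 0.02.

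Granule genes of the neutrophil lineage had some of the lowest ratios. Mpo, myeloperoxidase, had 240 UMIs in WT and 44 in cKO, or 298 (262 to 339) and 5.36 (3.89 to 7.19) CPM (-5.79, -6.30 to -5.33). Elane, neutrophil elastase, had 116 and 4 UMIs (-8.05, -10.11 to -6.81), and S100a8, a calcium-binding protein of mature neutrophils, 113 and 5 (-7.72). Of 12 early granulocyte and monocyte genes 7 were 2-fold lower, against 6.15% of all genes (4 with TMM factors, against 3.47%). Another 1, Gfi1, was 2-fold higher (1.04, and 0.87 at 2000 UMIs), against 1.97%, and the median over the 12 was -1.05. Mpo and Elane passed the minimum level through WT alone. Of the other 10 genes 5 were 2-fold lower, against 5.19% of all genes that did not have to differ in this way, with a median of -0.80. Of 13 genes of maturing neutrophils 5 reached the minimum level. S100a8, S100a9, Camp and Ngp did so through WT alone, with 1 to 5 UMIs in cKO, so that they had to differ and no count is read from them. Lyz2, lysozyme, was at 496 and 235 CPM (-1.08), which was within 2-fold with TMM factors. In the other WT cells Mpo, Elane and S100a8 were at 2340, 1869 and 2639 CPM. In the 20 WT cells with lymphocyte markers, which took in cycling progenitors, they were at 1206, 545 and 66.1 CPM. The share of free RNA in these ratios was not tested.

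Other lineage genes were mixed. Of 8 measured genes of the platelet lineage 4 were 2-fold lower (3 with TMM factors), against 6.15% of all genes (3.47%), among them Plek, which passed the minimum level through WT alone, Gp9 (-1.37) and F2r (-1.07). At 2000 UMIs the ratio of F2r was -0.32 (-1.14 to 0.66). The median was -0.88, and it was -0.46 at 2000 UMIs and -0.09 in the other cells. Among early lymphoid genes Wfdc17 (-4.59), Cd52 (-2.04) and Flt3, the receptor of lymphoid-primed progenitors, at 47.2 and 14.7 CPM (-1.69), were the 2-fold lower ones of 8, against 6.15% of all genes, with a median of -0.69. Wfdc17 passed the minimum level through WT alone. The 5 erythroid genes had a median of -0.53, and of 0.019 at 2000 UMIs. Apoe was 2-fold lower, against 6.15% of all genes, and Hbb-bt 2-fold higher, against 1.97%. Among the remaining genes with the lowest ratios, Snx14, a sorting nexin, was at 318 and 15.3 CPM (-4.37) and the predicted gene Gm19590 at 257 and 29.7 CPM (-3.12).

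**Figure D5:**
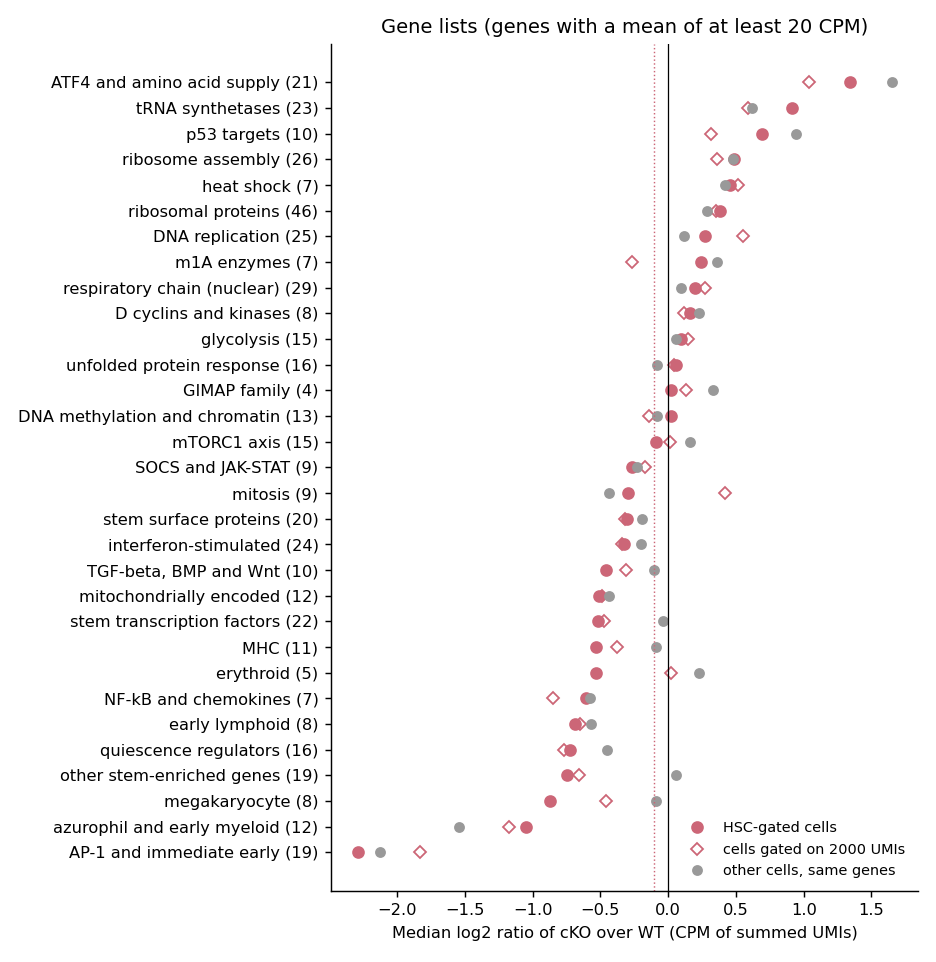
Median log2 ratio of cKO over WT for 31 gene lists (x axis) in gated cells (filled red), in cells gated at 2000 UMIs (open diamonds) and in all other cells (grey), with a dotted line at the median of all genes in gated cells, -0.10. The neutrophil list lies off the scale and is left out. ATF4 genes lie furthest to the right at 1.34 and immediate early genes furthest to the left at -2.29.

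Several genes separated gated from other cells in both libraries, apart from those of the rule. These are descriptions, since genes that go together with the gate or exclusion genes follow from the choice of cells. By at least 2-fold, 29 of 5238 genes (0.554%) were higher in the gated cells of both libraries and 38 (0.725%) were lower. Trim47, an E3 ligase gene, was at 107 CPM in gated and 18.3 in other WT cells, and at 37.4 and 15.1 CPM in cKO. Among genes with a mean of at least 50 CPM in gated cells, the 15 highest by the lower of the 2 ratios were Trim47, Gm19590, Hacd4 and Mycn, which were at least 2-fold higher in both libraries, and Tbxas1, Uba7, Apoe, Ifitm1, Ypel3, Socs2, Gimap5, Lst1, Gimap6, Gng11 and Ltb, whose lower ratio ran from 0.91 to 0.998. Socs2 was at 8.70 CPM in gated and 1.91 in other WT cells, and at 164 and 84.8 CPM in cKO, so it was higher in gated cells of both genotypes as well as higher in cKO. The lowest with the same minimum of 50 CPM were Mpo, Elane, Ctsg, S100a8 and 6 genes of chromatin and division, among them H2afx, Smc2 and Cks2.

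The ratios of some genes in gated cells were far from those in the other cells, by an interval from counting error that is no test across samples. Trib3 had 3.21 in gated and 6.40 in other cells, a difference of -3.19 (-4.05 to -2.33), and Nupr1 had 1.61 and 4.14, a difference of -2.53 (-2.87 to -2.19). The difference lay in WT. Trib3 was at 14.9 CPM in gated but 1.89 in other WT cells, and at 144 and 160 CPM in cKO, and Nupr1 at 99.4 and 14.0 CPM in WT and at 305 and 247 in cKO. In WT these stress genes were thus higher in the gated cells, whereas in cKO the levels of gated and other cells were closer.

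The cells most like the gated ones, the 320 WT and 2317 cKO cells with at least 3 stem markers and an exclusion gene, had a median of 1.44 for the ATF4 list, -2.02 for immediate early genes, -0.28 for stem cell transcription factors and -0.56 for other stem-enriched genes. In cells with Dntt and Flt3 and under 3 markers (1111 WT and 449 cKO) these medians were 1.75, -2.16, -0.60 and -0.36, and in cells with Pf4 and Itga2b (249 and 159) they were 1.76, -1.87, -0.15 and -0.49. Higher ATF4 genes and lower immediate early genes were therefore found in every class compared. Meis1 had -1.26 in gated cells and -0.28, -0.36 and -0.67 in these classes, and Gfi1b had -2.33 against -1.95, -0.90 and 0.08.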

How the data were processed

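Sorted LSK cells gave 1 WT and 1 cKO library for 3′ single-cell RNA sequencing, with genotypes as labelled. UMI counts per gene and barcode, produced by the authors with Cell Ranger 6.0.0 and mm10 according to the submitters' processing notes, were used as deposited. There are 8869 WT and 9260 cKO barcodes, against a stated target of 4000 cells per sample. The labels name version 2 and the methods version 3 of the 3′ kit. Gene coordinates were taken from GENCODE M21 (GRCm38).

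Barcodes with over 200 genes and under 10% mitochondrial UMIs were kept, which left 8815 and 9216 cells with 47947907 and 98266526 UMIs. UMIs were summed over the gated cells of each library and divided by all their UMIs (CPM). The log2 ratio of cKO over WT used 0.5 prior counts and an exact conditional binomial interval, levels had exact Poisson and shares exact Clopper-Pearson intervals. Intervals of a difference of ratios used a normal approximation. A gene counted as 2-fold different at a log2 ratio of at least 1 among genes, other than the 10 of the gate, with a mean of the 2 CPM values of at least 20. With 1 library per genotype no test was made, unlike the study's rank tests over cells. For the depth check each cell was thinned to 2000 UMIs and gated again, and all UMIs of the cells so gated were then summed. Other cells means all cells within the filters that were not gated. Lymphocyte-marked cells had at least 4 of 15 markers. The number was first set at 2 and was raised after the data were seen. Doublets were scored by the share of simulated doublets among 50 neighbours and removed only as an alternative.

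Named were the 12 highest and 12 lowest ratios at a mean of at least 50 CPM, up to 4 genes per list with the largest ratios at a mean of at least 20 CPM, 10 genes set in advance (Trmt6, Trmt61a, Tsc1, Mtor, Atf4, Slamf1, Cd34, Flt3, Kit and Ly6a), and, at a mean of at least 50 CPM, the 15 genes highest and 10 lowest in gated against other cells of both libraries and the 10 with the largest difference of ratios. Some genes that this rule or the lists take in are not reported here by name and not drawn among the stem genes. Further list members named in the text were picked after their values were seen. The members, the 32 gene lists and the rules were chosen with earlier results of these data known. Of the listed symbols 5 were not found (Castor1, Trmt61b, Mx2, Mpig6b and Ighm). Alternatives changed the gate, the cell filters, the scaling, the minimum level and the prior. The ratio was tested on simulated data. Python 3.11.15 with numpy 2.4.6, scipy 1.17.1, scikit-learn 1.9.0, pandas 2.3.3 and matplotlib 3.10.9 and R 4.3.3 with edgeR 4.0.16 (TMM factors only) were used.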

Additional observations from a re-analysis of the deposited data

Results flagged for a closer look

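In 8 of the 154 named genes the ratio of cKO over WT had one sign in HSC-gated cells and the opposite sign in the other cells, with both counting intervals away from 0. With 1 library per genotype the difference was not tested. The named genes were chosen in part for a large difference between these ratios, and Lgals1 was named by that rule alone. The count of 8 is therefore partly built in by the choice of genes. It is no estimate for all measured genes, for which no such share is given here. Lgals1, which encodes the lectin galectin-1 (chr15:78926725-78930465, plus strand), had a log2 ratio of 1.51 in gated and -0.78 in other cells, a difference of 2.29 (1.97 to 2.61). It was at 101 CPM in gated WT and 288 CPM in gated cKO cells, and at 495 and 289 CPM in the others. Its ratio was 1.57 in cells gated at 2000 UMIs and 0.65 without the exclusion genes. In cells with at least 3 stem markers and an exclusion gene it was 0.38 (0.24 to 0.54), the same sign as in the gated cells. It was 0.18 (-0.11 to 0.46) in cells with Pf4 and Itga2b and -0.21 (-0.29 to -0.13) in those with Dntt and Flt3. Rrm1, a subunit of ribonucleotide reductase, had a difference of 1.37 between its ratios of 1.10 and -0.27. In each of the remaining genes the gated cells had the lower ratio. Car2, carbonic anhydrase 2, had a difference of -1.0, from -0.77 in gated and 0.23 in other cells. Ltb, the lymphotoxin beta gene, had a difference of -1.20, H2-Aa, an MHC class II chain, -1.17, Sel1l, a part of the ER degradation machinery, -1.06, Tnfaip2, a TNF-induced gene, -0.77, and Slc2a3, a glucose transporter, -1.58. In the cells gated at 2000 UMIs the counting intervals of Lgals1, Car2 and Ltb stayed away from 0, and those of Rrm1, Tnfaip2, Sel1l, H2-Aa and Slc2a3 included 0. Without the exclusion genes the ratio of Ltb was 0.066, so that its opposite sign was lost.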

How the results depend on the processing

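The depth of the WT library and its 243 gated cells limit what can be seen, and no setting replaces a second library. No paired analysis was possible because there is 1 library per genotype and no test was made. The gated shares were 1.36% and 2.37% (ratio 1.75) with 2000 UMIs per cell, 0.375% and 0.565% (1.51) with 1000, 9.05% and 18.7% (2.07) with at least 2 markers, 0.681% and 5.47% (8.03) with at least 4, and 6.39% and 36.4% (5.70) without the exclusion genes. The 103 higher and 322 lower genes became 245 and 687 with at least 4 markers, 180 and 183 with median-of-ratios and 180 and 182 with TMM factors, 172 and 627 at a mean of 10 CPM, 45 and 125 at 50 CPM, and 707 and 3985 with no minimum. Each list median had limits, the medians of the lower and of the upper counting limits of its genes, which cover counting error only. Of 512 list medians computed under other settings 483 stayed within these limits and 29 left them. With at least 4 markers these were the other stem-enriched genes (-1.16), quiescence (-1.06), NF-kB (-1.58), p53 (0.15) and erythroid genes (-0.96). In cells gated at 2000 UMIs they were mitosis (0.42), m1A enzymes (-0.27), immediate early (-1.83) and erythroid genes (0.019). They were m1A enzymes (-0.65), platelet (-0.37) and neutrophil genes (-4.40) at 50 CPM, platelet (-1.37), early granulocyte (-1.27) and neutrophil genes (-5.67) with no minimum, and immediate early genes (-1.90) at 10 CPM. Without the exclusion genes the cytosolic ribosomal proteins moved to 0.32 and early granulocyte genes to -1.27. The ribosomal proteins moved to 0.60 with median-of-ratios or TMM factors and to 0.50 with totals without mitochondrial and ribosomal protein genes. Under both of those factors the medians were -0.30 for mitochondrially encoded mRNAs, 0.41 for the respiratory chain, 0.67 for heat shock and -0.83 for early granulocyte genes. Among the named genes, the ratio of Cenpe turned from -1.46 to 0.065 in cells gated at 2000 UMIs, and of 2002 values 1764 stayed within the counting interval and 238 left it, 16 of these with a change of sign. Of the 16, 10 were in cells gated at 2000 UMIs, among them Hmgb2 (-0.25 to 0.27), Cks2 (-0.55 to 0.23) and Birc5 (-0.44 to 1.28). Leaving out the 2 Jchain-rich cells, or the barcodes found in both libraries, is a setting chosen once the data had been seen, and it moved none of the gated shares, 2-fold counts or list medians beyond these limits. The causes of these moves were not tested.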
